A study of Equus caballus with 6 samples.

Results

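A set of 6 genes of natural killer (NK) cells and cytotoxic lymphocytes were followed in horse blood leukocytes before and after exercise: the effectors GNLY, GZMB and FASLG and the receptors KLRD1, KLRF1 and NCR1. They were taken as a fixed list of gene symbols, and every non-control probe whose RefSeq transcript belongs to 1 of these 6 genes was used. This gave 13 probes, of 1979 probes that could be tied to a horse gene and 829 genes with a symbol. The probes were 1 for GNLY, 2 for GZMB, 5 for FASLG, 2 for KLRD1, 2 for KLRF1 and 1 for NCR1. Total RNA from the leukocyte layer of spun blood (buffy coat) of 3 healthy gelded warmblood horses was hybridised to a 1-colour Agilent horse array. The before-exercise group and the after-exercise group each held 1 sample of every horse, so that 3 arrays stood in each group, and no treatment other than the exercise is named. The labels number the horses 1, 2 and 4 and give them ages of 11, 7 and 15 years, while the design text states 9 to 17 years. The samples after exercise are marked 60 min in one label, whereas the protocol has the blood drawn right after the exercise, so it is unclear whether the 60 min is the time of sampling or the length of the exercise. The kind of exercise is not given in the sources used here.

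NK cells are lymphocytes that kill infected or altered cells without a prior encounter with the target. Receptors decide whether a target is attacked: NKp46, encoded by NCR1, and NKp80, encoded by KLRF1, activate the cell, and CD94, encoded by KLRD1, pairs with NKG2 proteins into receptors that read a class I-like molecule on the target. Killing then runs through granules that carry granzyme B (GZMB) and granulysin (GNLY), or through Fas ligand (FASLG) on the cell surface, which starts the death programme of a cell that bears Fas. Cytotoxic T cells share the granule proteins, Fas ligand and part of the CD94 receptors, whereas NKp46 is mostly an NK cell receptor. NK cells are known to enter the circulation during exercise and to leave it afterwards. A whole leukocyte RNA sample cannot tell apart fewer cells of a type from less RNA per cell.

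A level here is the log2 of the background-subtracted spot signal minus the 75th percentile of its array, so that 0 is the brightness of a spot at that percentile. Differences after minus before exercise are on the same log2 scale. All 13 probes were well above background on all 6 arrays, and none had a flagged or saturated spot. Between 64.1% and 69.4% of the spots of an array were well above background. With 3 horses, the small number of arrays sets how precise any difference can be. The before-exercise arrays of horses 1 and 2 lay on slide 2 and the other 4 arrays on slide 1. In horses 1 and 2 a difference between slides can therefore not be told apart from exercise, while both arrays of horse 4 shared a slide. The after-exercise array of horse 4 was the dimmest, with a 75th percentile of 1124 intensity units against 1753 to 2536 on the other arrays.

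After exercise no member passed the test, and the 6 genes did not share a direction. GNLY was the only member with a higher level in all 3 horses, by 0.58 (SE 0.49) in the mean, or 1.50-fold (95% interval 0.66 to 3.37). GZMB, FASLG and KLRD1 were higher in horses 1 and 2 and lower in horse 4. NCR1 was lower in horses 1 and 4 and higher in horse 2, with a mean difference of -0.31 (SE 0.21). The brighter KLRF1 probe differed least within horse 1 and most within horse 2, where it was lower. The dimmer KLRF1 probe differed least within horse 4, by 0.14. With normexp background correction the brighter one differed most within horse 4, by 0.28. With limma and Benjamini-Hochberg adjustment, 0 of the 6 genes were called, against 0 of all 29570 probes tested (0%). At an unadjusted p under 0.05 the counts were 0 of the 13 member probes and 855 of all probes (2.89%). No member had all after-exercise arrays above all before-exercise arrays (3.51% of all probes) or all below them (3.80%). The median difference was 0.05 over the 6 genes and 0.04 over all probes.

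GNLY encodes granulysin, a granule protein that damages membranes of microbes and target cells. Before exercise its level was 1.63, 1.19 and 2.74 in horses 1, 2 and 4, and after exercise it was 2.43, 1.75 and 3.12 in the same order. Horse 4 was highest and horse 2 lowest at both times, and the groups overlapped because the animals lay farther apart than the 2 samples of any of them. The group means were 1.85 ± 0.80 before and 2.43 ± 0.68 after (SD, n = 3 each; limma adjusted p = 0.999). Within horses the difference was 0.80, 0.57 and 0.38. With the horse as a block, which removes the distance between animals, the same mean of 0.58 had an SE of 0.17 and a 95% interval of 0.14 to 1.02. Its unadjusted p in limma was then 0.021, with 6.08% of all probes under 0.05, and its adjusted p of 0.75 did not pass. A higher level in all 3 horses was found for 17.3% of all probes. Inside slide 1, the 3 arrays after exercise differed by -0.31 from the single array before exercise, that of horse 4, the animal with the highest GNLY.

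GZMB encodes granzyme B, the granule protease that sets off the death programme inside the target cell. The brighter of its probes had levels of 5.18, 5.02 and 5.99 before and 5.55, 5.49 and 5.78 after exercise in horses 1, 2 and 4. The horses thus stood closer together after exercise, at 5.61 ± 0.15 against 5.40 ± 0.52 before (SD, n = 3 each), and the groups overlapped. The arrays after exercise all lay on slide 1 and those before on both slides, so this narrower spread cannot be told apart from the slide. The differences were 0.37, 0.46 and -0.21, with a mean of 0.21 (SE 0.29; limma adjusted p = 0.999). The other probe gave 0.33, 0.45 and -0.37, the same directions in the same horses.

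FASLG encodes Fas ligand, a membrane protein of the TNF family that triggers apoptosis through Fas. Its brightest probe had levels of -1.49, -2.14 and -1.33 before and -1.37, -1.62 and -1.69 after exercise in horses 1, 2 and 4. The low sample was that of horse 2 before exercise, and the groups overlapped. The differences were 0.12, 0.52 and -0.36, with a mean of 0.09 (SE 0.26; limma adjusted p = 0.999). Apart from A_69_P073605, the probes ran alike, with a Pearson r between 0.96 and 0.99 for each pair over the 6 arrays. A_69_P073605 departed on 1 array: after exercise it read -2.02 in horse 1, where the other 4 probes read -1.37 to -1.51. That array gave the probe a difference of -0.57 in horse 1 and a mean of -0.22, the opposite sign to the other 4 probes of the gene. On the remaining horses its differences of 0.37 and -0.46 lay beside those of the other probes, 0.38 to 0.56 and -0.36 to -0.50. The mean of all 5 probes differed by 0.01 after exercise, and without A_69_P073605, a choice made after its values were seen, by 0.07.

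**Figure D1:**
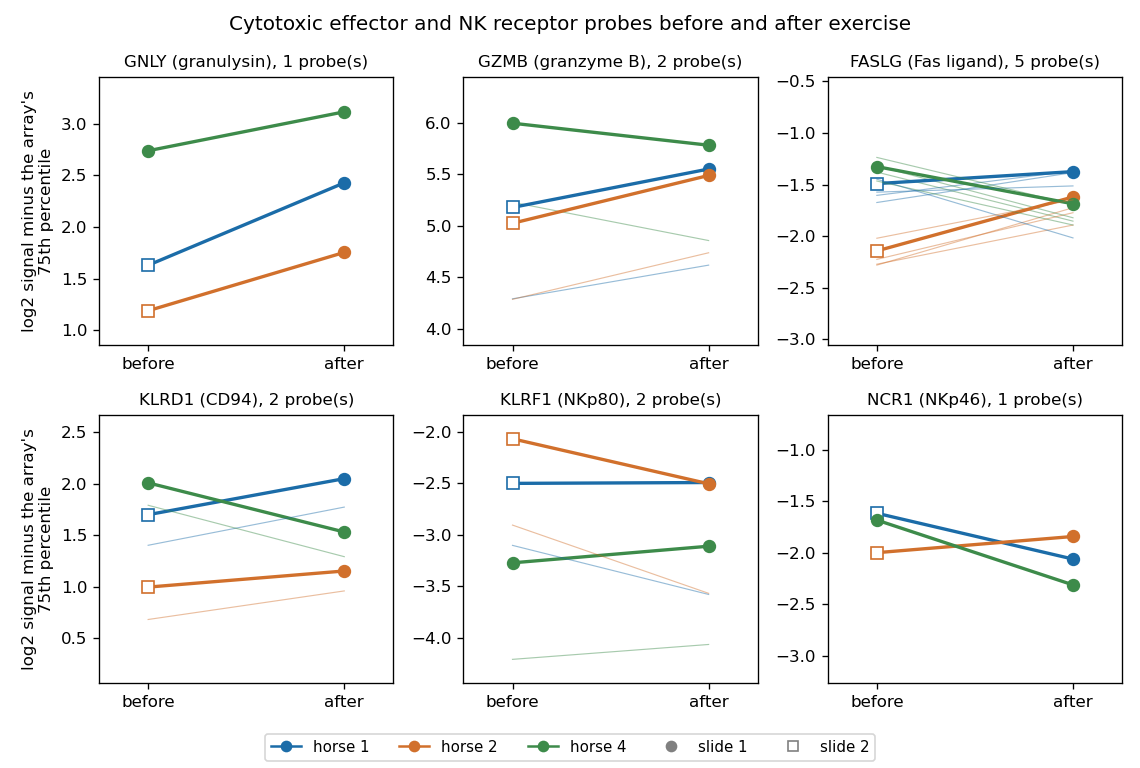
Levels of the 6 genes before and after exercise (y axis: log2 signal minus the 75th percentile of the array), 1 colour per horse. Thick lines with symbols are the brightest probe of each gene and thin lines its other probes; open squares are arrays on slide 2 and filled circles arrays on slide 1. The 3 GNLY lines all slope up and do not cross, from 1.19 to 3.12, while those of GZMB come together after exercise, where all arrays are on slide 1.

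The receptors began with KLRD1, which encodes CD94. The brighter KLRD1 probe read 1.70, 0.997 and 2.01 before and 2.05, 1.15 and 1.53 after exercise in horses 1, 2 and 4. Horse 2 was low at both times, and the groups overlapped. The differences of 0.35, 0.16 and -0.48 nearly cancelled, at a mean of 0.01 (SE 0.34, 95% interval -0.81 to 0.83; limma adjusted p = 0.9996). The second probe agreed within 0.12 in each horse, with differences of 0.37, 0.28 and -0.50.

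KLRF1 encodes NKp80, an activating receptor of the same lectin-like family. In the RefSeq table of the TB-T2T assembly KLRF1 and KLRD1 lie on the same chromosome with 14 protein-coding genes between them. Of these, 7 carry a symbol of the lectin-like CLEC family. Over the 6 arrays r between KLRF1 and KLRD1 was -0.57 and Spearman rho -0.26. At least as opposed to KLRD1 by r were 15.1% of all probes. KLRF1 read -2.50, -2.07 and -3.27 before and -2.49, -2.51 and -3.11 after exercise in horses 1, 2 and 4. Horse 4 was the low animal at both times, the reverse of GNLY and GZMB, where it was the high one. The differences were 0.01, -0.44 and 0.16, with a mean of -0.09 (SE 0.35; limma adjusted p = 0.999). The dimmer probe gave -0.48, -0.66 and 0.14, so that the probes were apart by 0.48 in horse 1 and close in horses 2 and 4. With normexp background correction the mean of the brighter probe was 0.06, the opposite sign.

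NCR1 encodes NKp46, the receptor most used to mark NK cells across mammals. Its probe read -1.62, -1.998 and -1.68 before and -2.06, -1.84 and -2.31 after exercise in horses 1, 2 and 4. The range over all 6 arrays was 0.69, the narrowest of the 6 genes, and the lowest value was that of horse 4 after exercise. The groups overlapped, at -1.77 ± 0.20 and -2.07 ± 0.23 (SD, n = 3 each), with differences of -0.44, 0.16 and -0.63 and a mean of -0.31 (SE 0.21, 95% interval -0.81 to 0.20; limma adjusted p = 0.999). Of the 6 genes NCR1 had the smallest unadjusted p in the fit without the horse, 0.20. The array of its lowest value was also the dimmest array, which held the lowest level of 15.6% of all probes, and the part of array brightness in that value was not tested.

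**Figure D2:**
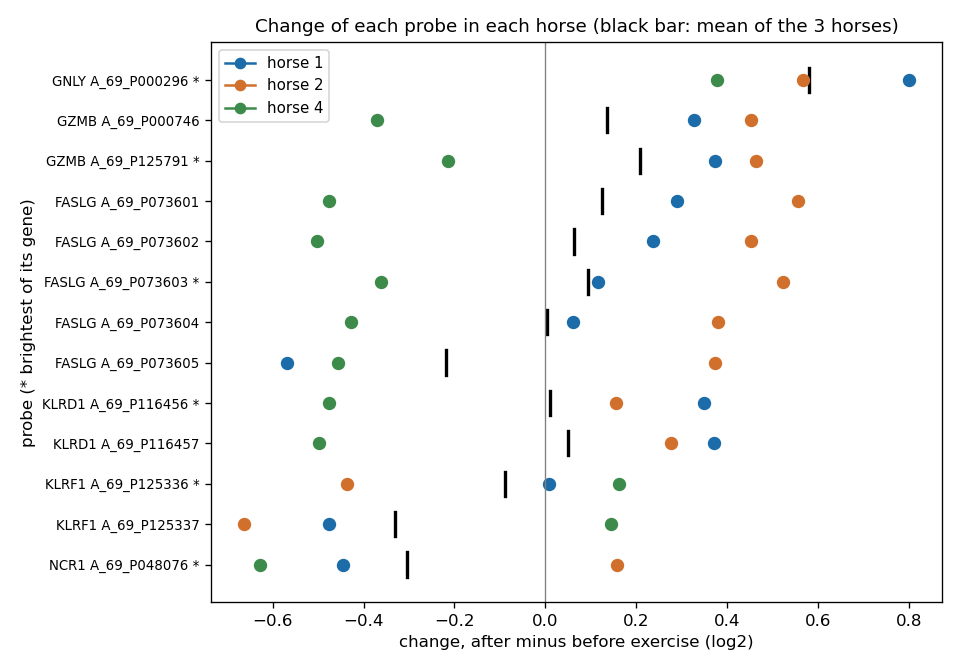
Difference after minus before exercise (x axis, log2) of all 13 probes in each horse, with 1 coloured point per horse and a black bar for the mean of the 3 horses. Horse 4 lies below 0 for 10 of the 13 probes, and horses 1 and 2 lie above 0 for 10 and 11 of them. As 5 of the 13 probes are of FASLG, these counts repeat genes. By gene, 4 of 6 were lower in horse 4, and 5 of 6 were higher in each of horses 1 and 2. Over all probes the median difference was 0.02, 0.10 and 0.004 in horses 1, 2 and 4. The GNLY probe is the one with all 3 points above 0.

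The direction was not the same in all horses. The pairs of horses 1 and 2 crossed from slide 2 to slide 1 and that of horse 4 did not, so that a split of these horses cannot be told apart from the slide. In horse 1 the level was higher after exercise for 5 of the 6 genes, with a median difference of 0.23, and in horse 2 for 5 of 6, with a median of 0.31. The 5 in horse 1 include KLRF1 at only 0.01, whose dimmer probe was at -0.48 there. Horse 4 had 2 genes higher, GNLY and KLRF1, and 4 lower, with a median of -0.29. Over all probes the medians were 0.02, 0.10 and 0.004 in horses 1, 2 and 4, with quartiles of -0.27 and 0.26, -0.27 and 0.40, and -0.26 and 0.25. The pattern of GZMB, FASLG and KLRD1, higher in horses 1 and 2 and lower in horse 4, was also that of 24.1% of all probes. The 18 differences (6 genes in 3 horses) kept their sign under all 4 scalings tried: the 75th percentile, the array median, quantile normalization and normexp background correction. Scaling by the array median moved the median difference of all probes in horse 1 from 0.02 to 0.19, and that of GNLY in the same horse from 0.80 to 0.97.

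For GNLY, GZMB, KLRD1 and KLRF1 the animals lay farther apart than the samples before and after exercise of any 1 animal. Averaged over both arrays of a horse, GNLY was 2.03, 1.47 and 2.93 in horses 1, 2 and 4, a spread of 1.46. KLRF1 was -2.50, -2.29 and -3.19, a spread of 0.90, with horse 4 lowest. With normexp background correction the KLRF1 spread was 0.47. For GZMB the spread was 0.63, but 0.37 after quantile normalization. That was smaller in size than the GZMB differences under the same normalization, 0.40 in horse 2 and -0.45 in horse 4. For KLRD1 the horse means were 1.87, 1.07 and 1.77, with horse 2 apart from the other two. NCR1 hardly differed between the animals, at -1.84, -1.92 and -2.00. The median spread between horse means over all probes was 0.47. Horses 1 and 2 each had 1 array on slide 2 and horse 4 had none, and these spreads were not corrected for the slide. In limma's F-test between horses, with exercise in the model, 0 of the 6 genes passed after Benjamini-Hochberg adjustment, against 0.237% of all probes. The smallest adjusted p was that of GNLY, 0.18, followed by KLRF1 with 0.28. At an unadjusted p under 0.05 the genes were GNLY (0.0034) and KLRF1 (0.030), 2 of 6, against 15.5% of all probes.

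Differences between genes on the same array do not depend on how that array was scaled, as long as 1 factor was used per array. On this measure GNLY gained on each of the other 5 members in all 3 horses. Against NCR1 it gained 1.24, 0.41 and 1.01 on the log2 scale in horses 1, 2 and 4. Against GZMB, which is stored in the same granules, it gained 0.43, 0.10 and 0.59. Against KLRD1 the gain was 0.45, 0.41 and 0.85, against KLRF1 0.79, 1.002 and 0.22, and against FASLG 0.68, 0.04 and 0.74. The background for this is high: the GNLY difference exceeded that of 69.3% of all probes in all 3 horses. NCR1 lost ground to GNLY, GZMB and FASLG in all 3 horses, and 38.6% of all probes lay above NCR1 in the same way. Of the 15 pairs of members, 8 had a difference of 1 sign in all 3 horses, and 5 of these 8 are the pairs with GNLY given above. The share among pairs of all probes was not computed. These relations were seen in the data and carry no test.

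Over the 6 arrays the members formed no single group. The arrays come from 3 horses and are not independent, so the correlations describe these arrays and have no p. They were also not corrected for the slide. The 2 arrays on slide 2, horses 1 and 2 before exercise, held the 2 lowest levels of both GNLY and GZMB. Among the 15 pairs Pearson r ran from -0.93 to 0.90, with a median of 0.18, and 9 pairs were above 0. The pairs that ran together were GNLY with GZMB (r = 0.90, Spearman rho = 0.94) and KLRD1 with FASLG (r = 0.88, rho = 0.89). KLRF1 ran against the granule genes, with r = -0.93 (rho = -0.83) to GZMB and r = -0.89 (rho = -0.77) to GNLY. NCR1 followed none of them closely, with r between -0.41 and 0.37. For comparison, probes of 1 gene correlated with r = 0.97 for GZMB, 0.99 for KLRD1 and 0.94 for KLRF1. High values were common on these arrays: 6.15% of all probes correlated with GNLY at least as closely as GZMB did, and 1.80% with KLRD1 at least as closely as FASLG did. As strongly opposed to GZMB as KLRF1 were 2.50% of all probes, and as strongly opposed to GNLY 4.53%.

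**Figure D3:**
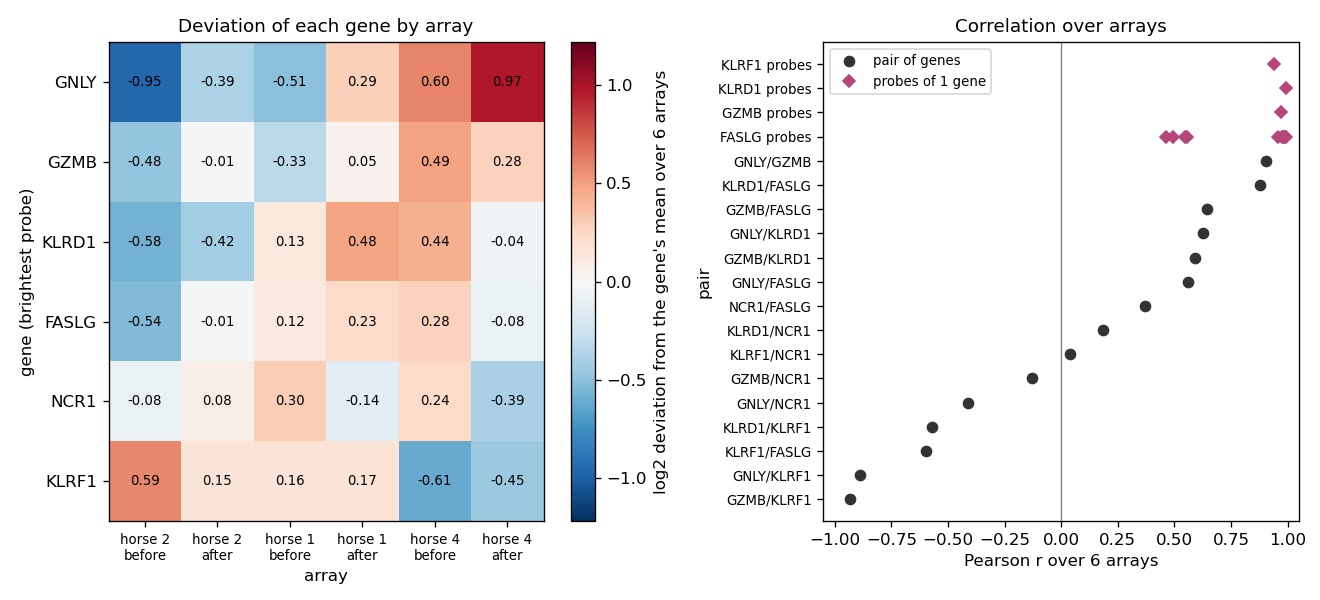
Left: log2 deviation of each gene's brightest probe from its own mean over the 6 arrays, with arrays ordered by horse. Right: Pearson r over the 6 arrays for the 15 pairs of genes (circles) and for pairs of probes of 1 gene (diamonds); GNLY and GZMB are lowest in horse 2 before exercise and high in horse 4, where KLRF1 is low, and the FASLG diamonds from 0.46 to 0.56 are the pairs with A_69_P073605.

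The opposed values of KLRF1 and the granule genes can be read from single arrays. Horse 4 had the highest GNLY and GZMB and the lowest KLRF1 at both times. The sample of horse 2 before exercise had the lowest GNLY, GZMB, KLRD1 and FASLG and the highest KLRF1. When any 1 array or 1 horse was left out, r between GZMB and KLRF1 stayed between -0.99 and -0.75, and r between GNLY and GZMB between 0.84 and 0.94. Without the 2 arrays of horse 4, r was -0.75 for GZMB and KLRF1 and -0.71 for GNLY and KLRF1. After quantile normalization r between GNLY and GZMB was 0.65.

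The named genes whose levels ran closest to the mean of the 6 members over the arrays were chosen by Pearson r. Among 550 named genes the 5 closest were EIF4G1, a translation initiation factor, CD2, an adhesion molecule of T and NK cells, ATP2A2, a calcium pump, TES, a focal adhesion protein, and MHCX1. Their r over the 6 arrays lay between 0.97 and 0.98. That mean leans on GNLY, the member with the widest range over the arrays (1.93). CD2 read 1.20, 0.65 and 1.72 before and 1.44, 1.13 and 1.24 after exercise in horses 1, 2 and 4. Its differences were 0.23, 0.48 and -0.47, and it did not pass the test (limma adjusted p = 0.999). As these genes were picked for running like the members, shared signs follow from the choice.

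Other genes of the cytotoxic pathway could be followed only in part. Of 86 listed genes of NK receptors, signalling, granules, death receptors and NK cell cytokines, 12 had a named probe and 10 were measured, and 0 of the 10 passed in either direction. None of the 21 other NK receptors listed and none of the 12 adaptor and signalling genes was measured. SH2D1B and IL12B had a named probe that was too dim to be kept.

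Among granule and release genes, CCL5, a chemokine stored in cytotoxic granules, had 2 probes, and the brighter is given. It read 4.33, 4.51 and 5.87 before and 5.28, 5.24 and 5.28 after exercise in horses 1, 2 and 4. The animals stood close together after exercise, at 5.27 ± 0.026 against 4.90 ± 0.84 before (SD, n = 3 each), and the mean difference was 0.37 (SE 0.41; limma adjusted p = 0.999). As for GZMB, the narrower spread cannot be told apart from the slide. CCL3, a chemokine that activated NK cells release, was higher in all 3 horses, by 0.26, 0.76 and 0.39, as were 17.3% of all probes. Its mean difference was 0.47, with an SE of 0.60, or 0.18 with the horse as a block. IFNG, the interferon that NK cells secrete, was dim, with a mean of -4.57 before exercise. Only the brightest of its 3 probes is given. It was 0.48 and 0.16 higher in horses 1 and 2 and differed by -2.11 in horse 4, where it was not well above background after exercise. The death ligand TNF had the opposite signs to IFNG, with -0.64, -0.27 and 1.54.

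Of the cytokines and receptors that drive NK cells 5 were measured, with a median difference of -0.04. IL15, the survival cytokine of NK cells, had -0.22, -0.31 and 0.05 (mean -0.16, SE 0.20), and IL18 had -0.49, -0.19 and 0.71 (mean 0.01, SE 0.39). IL2 had -0.39, 0.09 and -0.60, IL12A 0.27, -0.38 and -0.01, and the IL2 receptor chain IL2RA 0.12, 0.29 and -0.21. IL2, IL12A and IL2RA were dim, with means before exercise of -3.86, -4.13 and -4.65. Each had 5 probes, of which only the brightest is given. None of the 5 cytokine and receptor genes passed in limma.

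**Figure D4:**
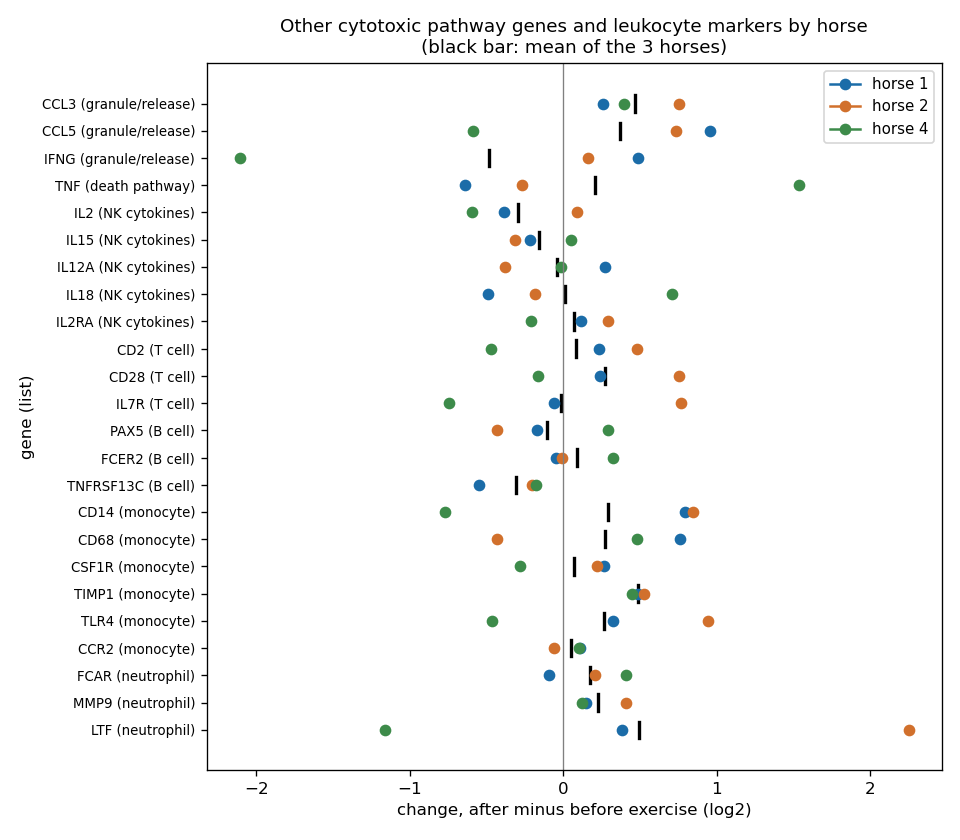
Difference after minus before exercise (x axis, log2) of other cytotoxic pathway genes and of leukocyte markers, with 1 coloured point per horse and a black bar for the mean. CCL5 and CD2 are above 0 in horses 1 and 2 and below 0 in horse 4, while TNF has the opposite signs.

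Markers of other blood cells varied on the same arrays. Of 20 T cell markers listed, 3 were measured (CD2, CD28 and IL7R), and the mean of their levels ran from -1.71 to -0.18 before and from -1.04 to -0.65 after exercise. Their median difference was 0.23, 0.75 and -0.47 in horses 1, 2 and 4, the same signs as the median of the 6 cytotoxic genes. CD2 itself gave the medians in horses 1 and 4, and IL7R was at -0.06 in horse 1. As CD2 was among the genes closest to the mean of the members, the shared signs in horses 1 and 4 carry no further information. The 6 of 14 monocyte markers measured had medians of 0.41, 0.37 and -0.09, and mean levels from 0.30 to 1.06 before and 0.64 to 1.35 after. The monocyte markers were split: CD14, CSF1R and TLR4 were lower in horse 4 after exercise, and TIMP1, CD68 and CCR2 were higher there. The medians of the 3 of 14 B cell markers went the other way, with -0.17, -0.20 and 0.29. In horse 4 PAX5 and FCER2 were higher after exercise and TNFRSF13C was lower, at -0.18. The 3 of 17 neutrophil markers had medians of 0.15, 0.41 and 0.12. They too were split: LTF was at 2.25 in horse 2 and -1.16 in horse 4, where FCAR and MMP9 were higher. Mean levels ran from -2.58 to -1.97 before and -2.43 to -2.23 after exercise for B cells, and from 1.47 to 2.96 and 2.37 to 2.75 for neutrophils. In each of these 4 lists 0 markers passed. The part of T cell content in the differences of GZMB, FASLG and KLRD1 was not tested.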

How the data were processed

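Each of the 6 arrays was one-colour (Cy3). Per the file headers, the authors' spot intensities were extracted with Feature Extraction 10.10.1.1 (protocol GE1_1100_Jul11), and the deposited processed signal is background-subtracted and linear. The headers name the EquCab1 build, and no coordinates were used. The log2 processed signal was scaled to the 75th percentile of the 43803 non-control spots of its array. Flagged spots were left out, spots of a probe were averaged, and the 29571 probes well above background on at least 3 arrays were kept; 29570 could be tested. Transcript identifiers were matched without version to the RefSeq table of the TB-T2T assembly, which named 1979 of 43603 probes. Groups were compared by limma's two-sided test (version 3.58.1, under R 4.3.3). Its p-values were adjusted by the Benjamini-Hochberg method over every probe tested, and 0.05 was the threshold; SEs and 95% intervals are limma's moderated ones. The scripts were tested on simulated data.

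The horse number marks 1 animal in both groups. The deviations from the group means of its paired arrays correlated with r = 0.36, 0.40 and 0.23 in horses 1, 2 and 4. The fit without the horse is the main one and the fit with the horse as a block an alternative. Samples of 1 group come from different horses.

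A gene stands for its probe with the highest mean. All 6 members and every probe of theirs are named, with the listed pathway and marker genes that were measured and the 5 named genes closest to the members' mean by Pearson r. The members and lists were chosen with earlier results of these data known. The normexp alternative used the median spot signal, since the files used here hold no mean signal column. Other alternatives changed the normalization, the dim-probe filter, flagged spots, slide, variance model and samples. No probe sequences were used here, and 1 of the measured pathway genes is not reported here.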

Additional observations from a re-analysis of the deposited data

How the results depend on the processing

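No member passed an adjusted p of 0.05 in limma under any alternative. The lowest adjusted p was 0.15 for both GNLY and NCR1, and 0.22 for GZMB, all with array weights by REML. NCR1 kept its direction under every alternative. With normexp KLRF1 was at 0.062, and after quantile normalization KLRD1 was at -0.024. With the slide as a block, and equally on slide 1 alone, GNLY was at -0.31, GZMB at -0.39, KLRD1 at -0.43, KLRF1 at 0.57 and FASLG at -0.23. These values set horse 4 before exercise against the 3 arrays after it, and on slide 1 alone that single array is assumed to vary like the others. With slide and horse as a replicate block, which leaves the pair of horse 4, GZMB was at -0.21, KLRD1 at -0.48, KLRF1 at 0.16 and FASLG at -0.36. The horse alone as a replicate block left each mean as it was and called 0 probes; adjusted p was 0.75 for GNLY, 0.80 for GZMB and 0.77 for NCR1, and it changed no call. With this block the SE was 0.20 for GZMB, 0.22 for FASLG, 0.22 for KLRD1, 0.19 for KLRF1 and 0.22 for NCR1. Probes at an unadjusted p under 0.05 were 1798 with this block and 855 without it.

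Leaving out 1 horse or 1 array gave 0.24 to 1.02 for GNLY, 0.02 to 0.51 for GZMB, -0.28 to 0.25 for KLRD1, -0.42 to 0.18 for KLRF1, -0.54 to -0.14 for NCR1 and -0.15 to 0.32 for FASLG. The median r of the 15 pairs was then -0.00046 to 0.41.

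Probes called after exercise, 0 in the report, were 132 with the slide as a block, 117 with slide and horse, 122 on slide 1 alone and 1638 with array weights by REML, an alternative chosen after seeing the data whose estimate did not fully converge. Without 1 horse or array they were 0 to 595, with 20 without horse 4 and 595 without its array before exercise. Probes that differed between horses, 70 in the report, were 1 after quantile normalization, 1 with flagged spots kept, 2 with no filter, 164 with trended and robust variance and 1 with the slide as a block. The cause was not tested. An alternative dropped all spots of column 1 in horse 4 before exercise. No member probe lay in that column, so this could not move their levels and says nothing about them.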

Other observations

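Red cell transcripts varied more between the arrays than any of the cytotoxic genes. The 2 erythroid markers measured, of 10 listed, had a mean level of 5.53, 1.27 and 7.67 before and 6.44, 3.75 and 7.91 after exercise in horses 1, 2 and 4. Horse 2 was lowest and horse 4 highest at both times, an order that GNLY and the brighter GZMB probe shared. Both markers were higher after exercise in all 3 horses, with a median difference of 0.91, 2.48 and 0.24, and neither passed in limma. The part of red cell content in the GNLY and GZMB values was not tested.

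The 3 platelet markers measured, of 10 listed, had a mean level of 1.91, 0.24 and 1.75 before and 2.01, 0.43 and 1.86 after exercise. Horse 2 was again the low animal. The 2 basophil and eosinophil markers measured, of 10 listed, had median differences of -0.26, 0.16 and 0.50 in horses 1, 2 and 4. None of these markers passed.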
